A study of Mus musculus with 18 samples.

Results

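Messenger RNA was measured for 39 genes of the amino acid response in mouse bone marrow macrophages. The 39 were chosen by name, as genes of the integrated stress response, of amino acid synthesis and of amino acid transport. Many of them are known or commonly listed as targets or controllers of the transcription factor ATF4. The choice was made with earlier results of these data known. All 39 were found by symbol among the 16909 genes of the deposited table, and 38 of them passed the filter on low counts and stood among the 12465 genes tested. Cbs, which makes cystathionine, did not pass, with 2 estimated counts summed over the UVABs libraries, 1 over STSABs, 1 over LPS and 2 over Con. The study holds 18 RNA-seq libraries. UVABs and STSABs macrophages (n = 5 each) received apoptotic bodies, the membrane-bound fragments shed by dying cells, made from hucMSC by UV and by STS. LPS macrophages (n = 5) are labelled as the inflammatory positive control, and Con macrophages (n = 3) as the mock group. LPS, or lipopolysaccharide, is a component of bacterial outer membranes that macrophages sense through Toll-like receptor signalling. The labels do not say whether the macrophages given apoptotic bodies (ABs) also received LPS, nor the doses, the times, the mouse strain or whether replicates came from separate animals or cultures, so the p-values cover variation among libraries, some of it possibly technical.

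Shortage of an amino acid leaves tRNAs uncharged and activates the kinase GCN2, made by Eif2ak4, while unfolded protein in the endoplasmic reticulum activates PERK, made by Eif2ak3. Both phosphorylate the initiation factor eIF2, which lowers most translation but raises translation of the Atf4 mRNA, so that ATF4 activity is set to a large extent at the level of its protein. ATF4 pairs with C/EBP proteins on composite DNA elements and induces enzymes and transporters that restore amino acid supply, together with regulators that restrain the response. In macrophages, activation by LPS changes the use of glutamine, serine and cystine, and the same genes sit at the junction of these pathways.

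Totals ran from 17588400 to 18675300 estimated counts a library, with similar ranges in the 4 groups. Levels are given as CPM, counts scaled to a library size adjusted by edgeR's TMM factors, whose means were 0.928 in UVABs, 0.932 in STSABs, 0.902 in LPS and 1.51 in Con. All 10 macrophage markers were measured, and their summed level lay between 9911 and 13789 CPM in every library. Singly they went both ways by the test given below. In each AB group 4 were higher and 4 lower than in LPS, and 4 were higher and 5 lower in LPS than in Con. Library 2 of UVABs and library 2 of STSABs stood apart from the other libraries of their groups on the third principal component of all genes, at -27.2 for UVABs and -21.5 for STSABs, where the other AB libraries lay between 2.5 and 11.2. On the first component Con libraries lay between -139 and -138, LPS libraries between 31.0 and 32.0 and AB libraries between 21.1 and 27.1. The AB libraries thus lay near LPS and far from Con on it, and the reason was not tested. Summed levels of 8 neutrophil markers were 3181 to 4204 CPM in UVABs, 3251 to 4711 CPM in STSABs, 1812 to 2524 CPM in LPS and 1185 to 1481 CPM in Con. All 8 were higher in each AB group than in LPS, none was without counts in any group, and 3 of 3 tested mast cell markers and 4 of 5 tested dendritic cell markers were higher there too. Of all tested genes, 28.6% were higher in UVABs than in LPS and 28.4% in STSABs. Summed levels of 7 stromal markers were 15.4 to 24.8 CPM in UVABs, 15.8 to 21.2 in STSABs, 11.9 to 12.9 in LPS and 48.2 to 51.5 in Con. The part of these cell types in the results on amino acid response genes was not tested. Whether RNA carried in with the ABs added to the counts of the AB groups was not tested either. In bulk RNA fewer cells of a type and less RNA per cell cannot be told apart.

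Most of the genes were higher in macrophages given ABs than in LPS macrophages, and most were lower in LPS macrophages than in Con. A gene was called where the adjusted p of edgeR's quasi-likelihood test, by Benjamini-Hochberg over the 12465 genes, was below 0.05. Against LPS, 28 of the 38 tested genes were higher in UVABs and 3 were lower, or 73.7% and 7.89%, where 28.6% and 28.8% of all tested genes were called in these directions. In STSABs, 29 were higher than in LPS and 3 were lower, or 76.3% and 7.89%, against 28.4% and 29.0% of all tested genes. The median log2 fold change of the 38 was 0.53 in UVABs and 0.63 in STSABs, while that of all tested genes was 0.00 and -0.01. Without library 2 of both AB groups, 28 were higher and 3 lower in UVABs, and 27 were higher and 3 lower in STSABs. In LPS against Con, 27 of the 38 were lower and 8 were higher, or 71.1% and 21.1%, where 43.0% of all tested genes were called lower and 40.0% higher. The median log2 fold change was -1.07 for the 38 and -0.03 for all tested genes. Both AB comparisons use the same LPS libraries, which also stand in LPS against Con, so the 3 comparisons are not independent and their values are given side by side. Of the 56 other tested genes of the same pathways, 32.1% were higher and 39.3% lower in UVABs than in LPS. In STSABs 30.4% were higher and 39.3% lower than in LPS. The 38 were chosen with earlier results of these data known, and how far that choice shaped their shares was not tested.

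**Figure D1:**
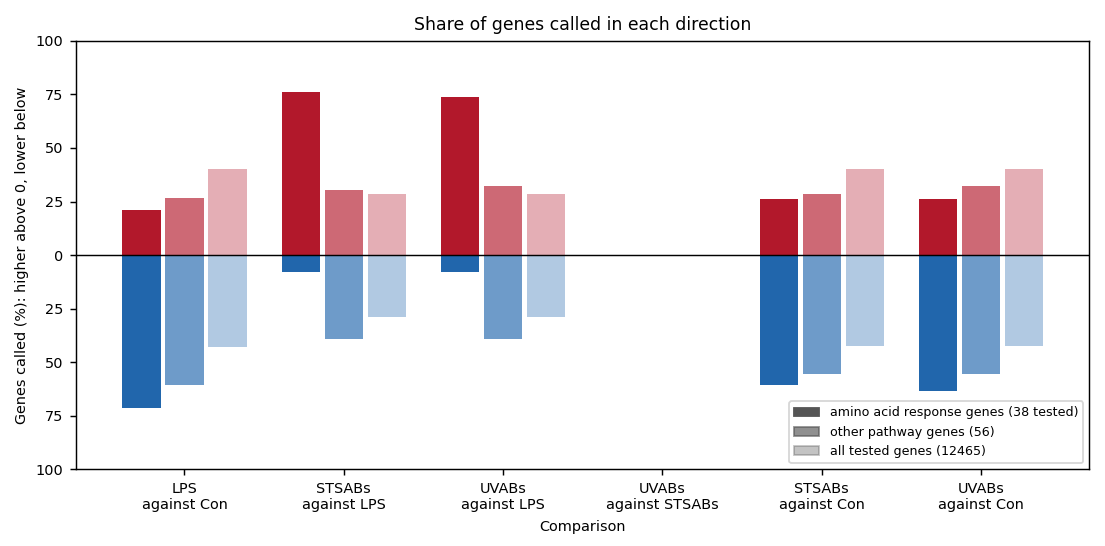
Percent of genes called higher and lower in each comparison, for the 38 tested amino acid response genes, the 56 other tested pathway genes and all 12465 tested genes (edgeR, adjusted p below 0.05). In UVABs against LPS and STSABs against LPS, 73.7% and 76.3% of the 38 were called higher, beside 28.6% and 28.4% of all genes; in UVABs against STSABs no gene of the 3 sets was called.

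Comparisons with Con depend on the scaling, because the TMM factor of the Con libraries was 1.51 and that of the other groups near 0.9. Of all genes called in LPS against Con, 48.2% were higher under TMM, 36.0% under upper-quartile scaling and 21.2% under scaling by totals alone, and the median of all genes moved from the TMM value of -0.03 to -0.31 and -0.78. The median of the 38 genes lay 1.04 below that of all tested genes under each of the 3 scalings (log2). A change of scaling moves all genes of a comparison by nearly the same amount. This difference could therefore hardly change, and it is no test of the scaling.

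**Figure D2:**
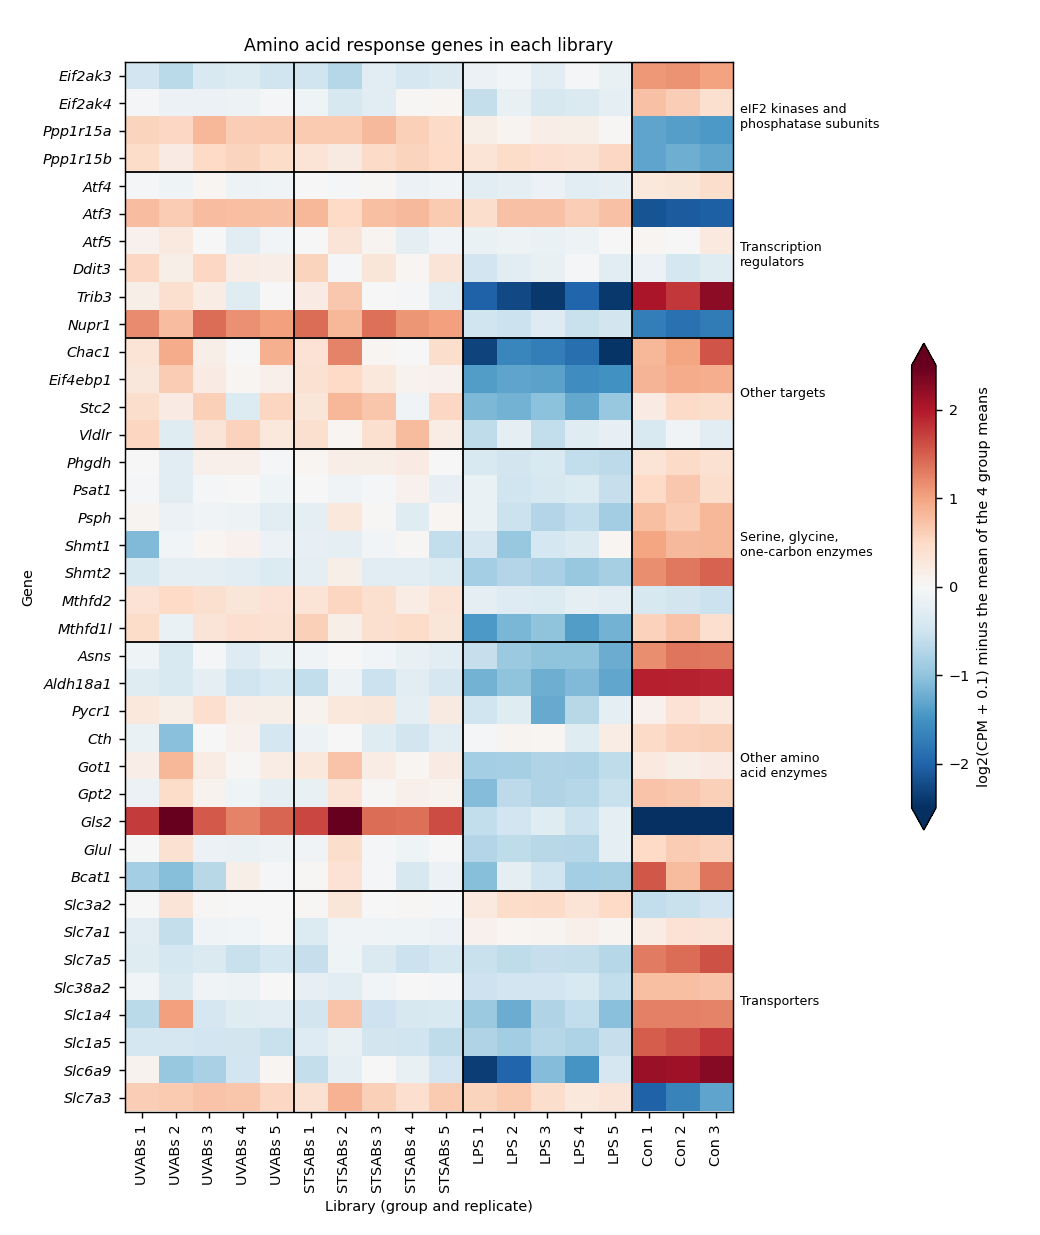
Level of each amino acid response gene in each of the 18 libraries, as log2(CPM + 0.1) minus the mean of the 4 group means of that gene, with genes grouped by role and libraries by group. Colours stop at the limits of the scale, which Gls2 passes in Con and in library 2 of both AB groups; most rows are bluer (lower) in LPS than in the UVABs and STSABs libraries, and the rows of Eif2ak3, Slc3a2 and Slc7a1 run the other way.

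The composite element bound by ATF4 with C/EBP proteins was searched for in promoters, taken as 250 bases before to 50 after each start from RefSeq on GRCm38.p6, which is not the build used for the counts. Promoters were matched by symbol for 32 of the 39 genes, and not for Ppp1r15b, Eif4ebp1, Cth, Gls2, Slc7a5, Slc1a5 and Slc7a3. The letters TGATGNAA, on either strand, stood in a promoter of 9 of the 32 genes (28.1%) and of 4.51% of the 27025 genes in the promoter table. The stricter TTGCATCA, which is 1 of the sequences that the first motif matches, stood in 7 of the 32 (21.9%) and in 1.03% of all genes. Many of the 39 are known or commonly listed targets or controllers of ATF4, so these higher shares were partly built into the list. The genes with a match were Asns, Atf3, Chac1, Got1, Nupr1, Pycr1, Slc1a4, Trib3 and Vldlr, of which Asns and Trib3 held the looser motif alone. Of these 9, Atf3 was not called in either AB group against LPS, and the other 8 were higher in both. Of all 38 tested genes, with or without a match, 73.7% were higher in UVABs and 76.3% in STSABs. Among all tested genes 28.6% and 28.4% were. Whether a match goes with the change was not tested. A match describes these letters and is no evidence that a factor bound there.

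The promoters of Chac1, Trib3, Nupr1 and Got1 are shown because, of the genes with a match, they had the largest absolute log2 fold changes in STSABs against LPS. Their log2 fold changes were above 1 in both AB groups against LPS. Each runs 5′ to 3′ on the strand of its gene, with the match in capitals. Chac1 lies at chr2:119350992-119351291 on the plus strand, Trib3 at chr2:152344011-152344310 on the minus strand, Nupr1 at chr7:126625421-126625720 on the minus strand and Got1 at chr19:43524556-43524855 on the minus strand. The match starts 193 bases before the start of Chac1, 110 before that of Nupr1, 102 before that of Got1 and, in Trib3, at base 15 counted from the start.
Chac1: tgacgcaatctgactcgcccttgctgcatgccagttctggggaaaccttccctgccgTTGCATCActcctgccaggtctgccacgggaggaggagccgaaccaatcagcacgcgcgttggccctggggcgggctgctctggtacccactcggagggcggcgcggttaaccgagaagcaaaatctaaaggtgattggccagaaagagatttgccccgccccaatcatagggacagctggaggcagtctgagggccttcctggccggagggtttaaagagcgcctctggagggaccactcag
Trib3: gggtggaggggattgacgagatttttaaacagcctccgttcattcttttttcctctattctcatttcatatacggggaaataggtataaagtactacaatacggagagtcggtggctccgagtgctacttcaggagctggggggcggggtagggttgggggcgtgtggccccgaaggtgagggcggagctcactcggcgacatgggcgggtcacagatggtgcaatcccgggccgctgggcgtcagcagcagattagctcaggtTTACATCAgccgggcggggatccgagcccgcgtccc
Nupr1: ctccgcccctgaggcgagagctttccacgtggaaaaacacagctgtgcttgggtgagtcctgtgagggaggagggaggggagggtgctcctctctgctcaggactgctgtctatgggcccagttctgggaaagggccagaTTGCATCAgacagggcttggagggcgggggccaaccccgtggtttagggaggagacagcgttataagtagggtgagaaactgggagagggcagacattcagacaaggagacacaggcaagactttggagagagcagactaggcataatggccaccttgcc
Got1: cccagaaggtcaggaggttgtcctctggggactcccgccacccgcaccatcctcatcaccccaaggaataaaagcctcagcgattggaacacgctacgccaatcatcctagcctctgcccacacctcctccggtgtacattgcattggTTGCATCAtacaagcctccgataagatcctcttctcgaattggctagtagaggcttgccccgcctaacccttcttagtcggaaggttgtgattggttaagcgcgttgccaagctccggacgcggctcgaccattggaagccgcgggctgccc

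Among the kinases of eIF2, both AB groups had lower Eif2ak3 and higher Eif2ak4 than LPS. Eif2ak3 averaged 12.9 ± 1.14 CPM in UVABs, 13.1 ± 1.43 in STSABs, 16.2 ± 0.920 in LPS and 37.7 ± 1.49 in Con (SD, n = 5, 5, 5 and 3, as for all group means below). Its log2 fold change against LPS was -0.33 ± 0.08 in UVABs and -0.31 ± 0.08 in STSABs (± SE, edgeR adjusted p = 0.000919 and 0.00172), and in LPS against Con it was -1.21 ± 0.08. Eif2ak4 had log2 fold changes of 0.26 ± 0.09 in UVABs and 0.23 ± 0.09 in STSABs, with adjusted p of 0.0202 and 0.0418 by edgeR, and the STSABs and LPS libraries overlapped. The Eif2ak4 call in STSABs was lost without any of LPS libraries 1, 3 and 4 or STSABs libraries 1, 4 and 5 (0.17 to 0.22), and that in UVABs without LPS library 1 (0.20). Ppp1r15a and Ppp1r15b encode GADD34 and CReP, the subunits that direct a phosphatase to eIF2. Ppp1r15a was higher than in LPS with log2 fold changes of 0.53 ± 0.06 in UVABs and 0.54 ± 0.06 in STSABs, and higher in LPS than in Con with a log2 fold change of 1.49 ± 0.08. Ppp1r15b was higher in LPS than in Con with a log2 fold change of 1.70 ± 0.08, while its log2 fold changes of 0.02 in UVABs and 0.00 in STSABs against LPS were not called.

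Atf4 mRNA itself was slightly higher in the AB groups than in LPS. It was measured at 169, 161, 181, 159.7 and 165 CPM in UVABs libraries 1 to 5 and at 174, 170.2, 178, 157 and 163 CPM in STSABs libraries 1 to 5. LPS libraries held 144, 149, 156, 145 and 148 CPM and Con libraries 208, 216 and 235 CPM. Every AB library lay above every LPS library and below every Con library, so no groups overlapped other than UVABs with STSABs. The log2 fold change against LPS was 0.17 ± 0.05 in UVABs and 0.18 ± 0.05 in STSABs (edgeR adjusted p = 0.00516 and 0.00299), and -0.56 ± 0.05 in LPS against Con (edgeR adjusted p = 2.76e-09).

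Ddit3 encodes CHOP, a C/EBP-family partner of ATF4 in prolonged stress. Its level was 20.6, 16.0, 20.7, 16.2 and 16.1 CPM in UVABs, 21.0, 13.9, 17.8, 14.8 and 17.9 in STSABs, 10.2, 11.9, 12.6, 14 and 11.8 in LPS and 13.0, 10.5 and 11.6 in Con. UVABs libraries all lay above the LPS libraries, whereas STSABs overlapped LPS, and LPS overlapped Con. Ddit3 was higher than in LPS with log2 fold changes of 0.56 ± 0.11 in UVABs and 0.50 ± 0.11 in STSABs (edgeR adjusted p = 0.000217 and 0.000774), and its change of 0.05 ± 0.13 in LPS against Con was not called. Its deposited value was not a whole number in 1 library.

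Trib3 is a pseudokinase that ATF4 and CHOP induce and that restrains ATF4. Trib3 stood at 10.3, 12.3, 10.5, 7.51 and 9.16 CPM in UVABs, at 10.8, 14.8, 9.34, 9.12 and 7.75 in STSABs, at 2.21, 1.88, 1.65, 2.28 and 1.66 in LPS and at 38.6, 31.7 and 44.1 in Con. All AB libraries were above all LPS libraries and below all Con libraries. The log2 fold change against LPS was 2.35 ± 0.20 in UVABs and 2.41 ± 0.19 in STSABs (edgeR adjusted p = 1.8e-09 and 1.11e-09), and without library 2 of both AB groups it was 2.27 in UVABs and 2.25 in STSABs. LPS against Con gave -4.29 ± 0.18 (edgeR adjusted p = 1.09e-15), the lowest log2 fold change of the 38 genes in that comparison.

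Nupr1, a small nuclear stress protein, was higher in LPS than in Con and higher again in both AB groups. Nupr1 libraries read 82.5, 61.9, 95.7, 80.4 and 73.8 CPM in UVABs, 95.0, 64.6, 94.3, 78.4 and 74.2 in STSABs, 25.7, 25, 29.0, 24.7 and 26.3 in LPS and 10.9, 9.86 and 10.7 in Con. AB, LPS and Con libraries formed 3 ranges without overlap, with the AB libraries highest. The log2 fold change was 1.59 ± 0.11 in UVABs and 1.64 ± 0.11 in STSABs against LPS (edgeR adjusted p = 8.07e-11 and 5.26e-11) and 1.32 ± 0.14 in LPS against Con. Atf3, another stress-induced factor of the ATF family, was higher in LPS than in Con with a log2 fold change of 2.75 ± 0.08, and its fold changes of 0.08 in UVABs and 0.05 in STSABs against LPS were not called. Atf5, a paralogue of ATF4, was not called in these 3 comparisons, although leaving out Con library 2, LPS library 5, or library 2 or 4 of either AB group gave a call in LPS against Con (-0.27 to -0.23). Its level was 38.3 ± 5.29 CPM in UVABs, 38.5 ± 5.76 in STSABs, 34.8 ± 1.71 in LPS and 40.7 ± 3.54 in Con.

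**Figure D3:**
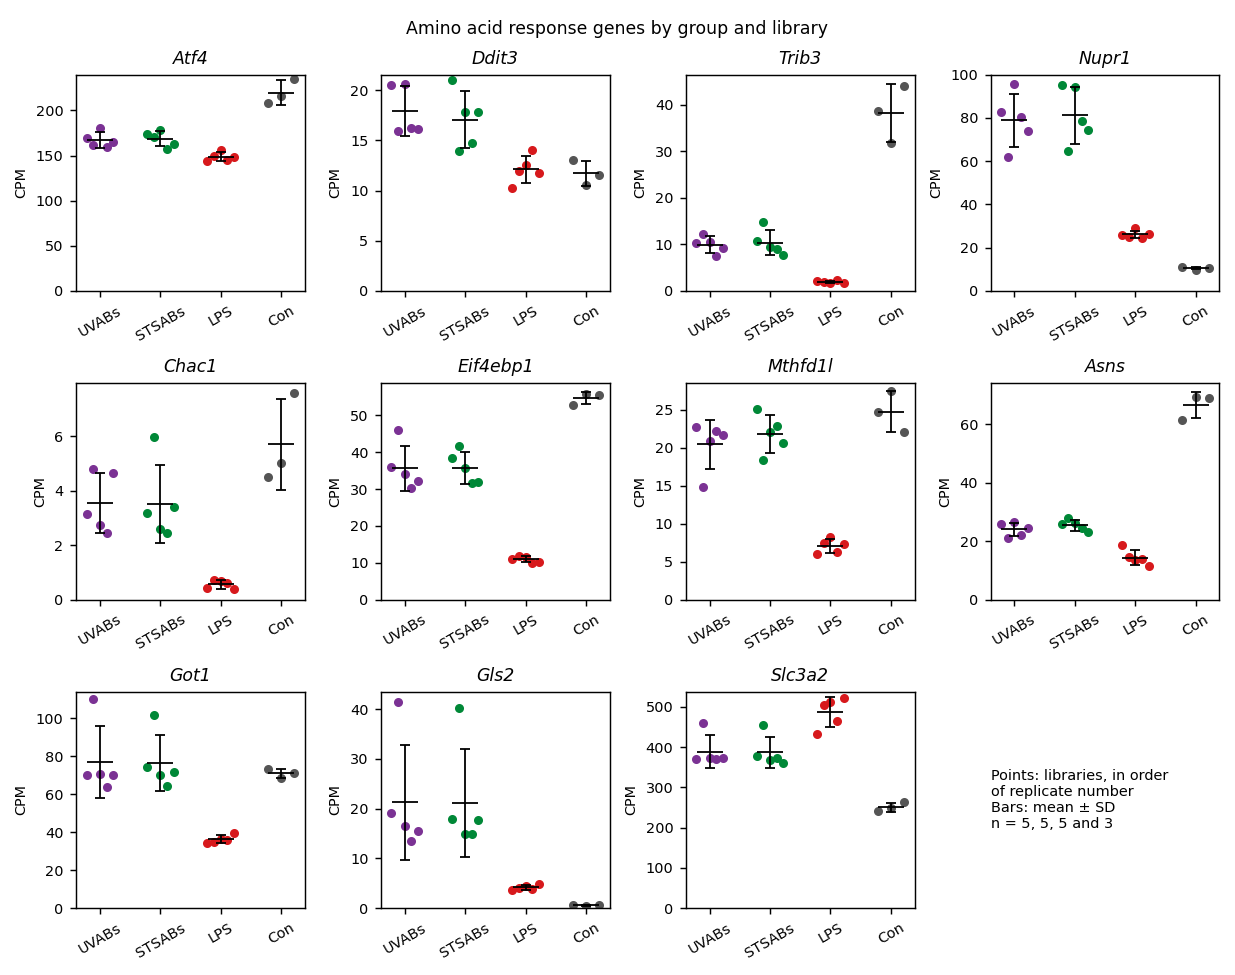
Level in CPM (linear axis from 0) in every library for the genes named by size of change and for Atf4, Ddit3, Asns and Slc3a2; each point is 1 library and bars give the group mean ± SD. For Trib3, Eif4ebp1 and Asns the LPS libraries lie below all AB libraries and all Con libraries, for Gls2 and Nupr1 the Con libraries lie lowest, and for Slc3a2 the LPS group has the highest mean, 487 CPM.

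Among the targets outside amino acid metabolism, Chac1 had the highest log2 fold change of the 38 genes against LPS in both AB groups. It encodes an enzyme that degrades glutathione. Chac1 had low levels, of 3.15, 4.79, 2.73, 2.45 and 4.64 CPM in UVABs, 3.19, 5.96, 2.58, 2.46 and 3.41 in STSABs, 0.419, 0.727, 0.674, 0.600 and 0.368 in LPS and 4.49, 5.02 and 7.59 in Con. AB libraries lay above all LPS libraries and overlapped Con. Against LPS its log2 fold change was 2.66 ± 0.34 in UVABs and 2.64 ± 0.34 in STSABs (edgeR adjusted p = 8.32e-07 and 9.12e-07), and 2.53 in UVABs and 2.37 in STSABs without library 2 of both AB groups. It was -3.34 ± 0.32 in LPS against Con (edgeR adjusted p = 3.05e-09).

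Eif4ebp1 encodes 4E-BP1, a brake on cap-dependent translation. UVABs libraries held 36.0, 45.9, 34.0, 30.3 and 32.1 CPM, STSABs libraries 38.4, 41.7, 35.6, 31.5 and 31.9 CPM, LPS libraries 11.1, 11.8, 11.6, 9.97 and 10.3 CPM and Con libraries 52.9, 55.9 and 55.6 CPM. The AB libraries lay between LPS below and Con above, without overlap. Log2 fold changes were 1.70 ± 0.10 in UVABs and 1.71 ± 0.10 in STSABs against LPS (edgeR adjusted p = 1.94e-11 and 1.83e-11) and -2.32 ± 0.11 in LPS against Con. Stc2, a secreted glycoprotein, averaged 3.13 ± 0.760 CPM in UVABs, 3.51 ± 0.846 in STSABs, 1.09 ± 0.106 in LPS and 3.25 ± 0.345 in Con, and was higher than in LPS with log2 fold changes of 1.51 ± 0.21 in UVABs and 1.68 ± 0.21 in STSABs. Vldlr, a lipoprotein receptor, was higher than in LPS with log2 fold changes of 0.74 ± 0.19 in UVABs and 0.82 ± 0.19 in STSABs, and was not called in LPS against Con (-0.15 ± 0.22). Its level was low, at 1.24 CPM on average in LPS, and its UVABs libraries overlapped those of LPS.

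The enzymes that make serine and glycine and pass their carbon to folate were nearly all higher in both AB groups than in LPS, in 6 of 7 cases, and 6 of the 7 were lower in LPS than in Con. Against LPS this is 85.7%, where 28.6% of all tested genes were called higher in UVABs and 28.4% in STSABs. In LPS against Con it is 85.7% lower, beside 43.0% of all tested genes. Phgdh, Psat1 and Psph carry out the 3 steps from a glycolytic intermediate to serine. Their log2 fold changes against LPS were 0.49 ± 0.07, 0.30 ± 0.08 and 0.46 ± 0.13 in UVABs, and 0.61 ± 0.07, 0.35 ± 0.08 and 0.55 ± 0.13 in STSABs. In LPS against Con they were -0.90 ± 0.08, -0.93 ± 0.08 and -1.32 ± 0.13, and the libraries of these groups did not overlap for any of the 3 genes. Both AB groups overlapped LPS for Psat1 and Psph, and neither did for Phgdh. Shmt2, the mitochondrial enzyme that turns serine into glycine, averaged 27.3 ± 1.12 CPM in UVABs, 29.4 ± 4.42 in STSABs, 18.8 ± 0.998 in LPS and 84.2 ± 9.10 in Con. Its log2 fold change was 0.54 ± 0.08 in UVABs and 0.65 ± 0.08 in STSABs against LPS and -2.17 ± 0.09 in LPS against Con. The cytosolic Shmt1 was lower in LPS than in Con with a log2 fold change of -1.32 ± 0.20, and its changes of 0.23 in UVABs and 0.19 in STSABs against LPS were not called.

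Mthfd1l, the mitochondrial formate-producing folate enzyme, had the highest fold change of this role. Its libraries read 22.7, 14.8, 20.9, 22.2 and 21.7 CPM in UVABs, 25.1, 18.4, 22, 22.9 and 20.6 in STSABs, 6.05, 7.45, 8.21, 6.24 and 7.30 in LPS and 24.8, 27.5 and 22.1 in Con. LPS libraries were all below the AB and Con libraries, and AB overlapped Con. It was higher than in LPS with log2 fold changes of 1.54 ± 0.12 in UVABs and 1.63 ± 0.12 in STSABs (edgeR adjusted p = 6.45e-10 and 2.52e-10), and the change in LPS against Con was -1.81 ± 0.13. Mthfd2, the mitochondrial enzyme before it in the same folate path, averaged 201 ± 10.2 CPM in UVABs, 198 ± 17.7 in STSABs, 127 ± 3.80 in LPS and 112 ± 5.53 in Con. Mthfd2 was higher than in LPS with log2 fold changes of 0.67 ± 0.06 in UVABs and 0.65 ± 0.06 in STSABs, and its higher level in LPS than in Con, 0.18 ± 0.06 under TMM, turned to -0.10 under upper-quartile scaling and -0.56 under totals alone. Without Con library 3 it was 0.14 and not called.

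**Figure D4:**
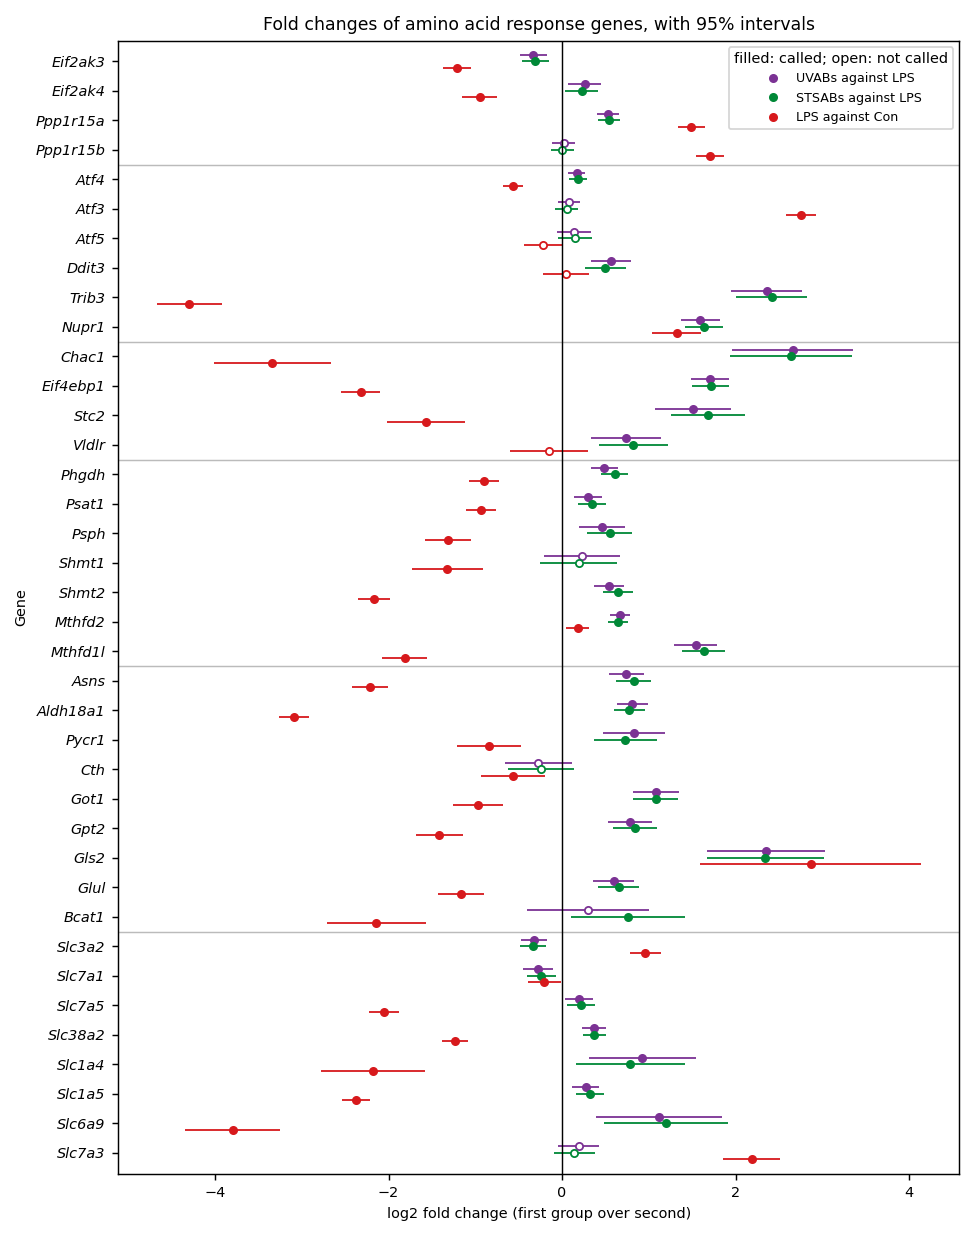
Log2 fold change with 95% interval for each of the 38 tested genes in UVABs against LPS, STSABs against LPS and LPS against Con, ordered by role; filled points passed the edgeR test at an adjusted p of 0.05. Gls2, Chac1, Trib3, Nupr1, Eif4ebp1 and Mthfd1l lie farthest to the right in the AB comparisons among genes with a group mean of at least 5 CPM, and Trib3 in LPS against Con lies farthest to the left, at -4.29.

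Of the 9 other amino acid enzymes tested, 7 were higher in UVABs than in LPS and 8 in STSABs, none was lower in either, and 8 were lower in LPS than in Con. The shares higher were 77.8% in UVABs and 88.9% in STSABs, beside 28.6% and 28.4% of all tested genes. In LPS against Con 88.9% were lower, beside 43.0% of all tested genes. Asns makes asparagine and is the classical target of the amino acid response. Asns levels were 25.7, 21.2, 26.5, 22.1 and 24.5 CPM in UVABs, 25.8, 27.8, 26.2, 24.3 and 23.0 in STSABs, 18.5, 14.4, 13.6, 13.7 and 11.5 in LPS and 61.6, 69.4 and 69.0 in Con. The AB libraries lay above LPS and well below Con, and no ranges overlapped except those of the AB groups. Asns was higher than in LPS with log2 fold changes of 0.74 ± 0.10 in UVABs and 0.82 ± 0.10 in STSABs (edgeR adjusted p = 1.07e-06 and 2.28e-07), and had a log2 fold change of -2.21 ± 0.10 in LPS against Con (edgeR adjusted p = 3.01e-15).

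Got1, the cytosolic aspartate aminotransferase, had 69.8, 110.2, 70.4, 63.5 and 70.3 CPM in UVABs, 74.4, 102, 70.3, 64.1 and 71.7 in STSABs, 34.3, 34.8, 36.5, 36.1 and 39.6 in LPS and 73.3, 68.6 and 71.2 in Con. LPS libraries were lowest without overlap, and library 2 of each AB group was highest in its group. The log2 fold change against LPS was 1.08 ± 0.13 in UVABs and 1.08 ± 0.13 in STSABs (edgeR adjusted p = 2.83e-07 and 3.01e-07), and 0.92 in UVABs and 0.95 in STSABs without both libraries numbered 2. Between LPS and Con it was -0.97 ± 0.14.

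Gls2, the liver-type glutaminase that turns glutamine into glutamate, varied widely among AB libraries. It read 19.1, 41.5, 16.6, 13.5 and 15.6 CPM in UVABs, 18, 40.2, 14.9, 14.9 and 17.7 in STSABs, 3.65, 4.0, 4.53, 3.84 and 4.79 in LPS and 0.688, 0.469 and 0.542 in Con. Library 2 of each AB group stood far above the other 4, yet every AB library was above every LPS library and every LPS library above every Con library. The log2 fold change against LPS was 2.35 ± 0.33 in UVABs and 2.34 ± 0.33 in STSABs (edgeR adjusted p = 2.68e-06 and 2.73e-06), against 1.96 in UVABs and 1.98 in STSABs without both libraries numbered 2. LPS against Con gave 2.86 ± 0.61. Glul, which makes glutamine, was higher than in LPS with log2 fold changes of 0.59 ± 0.11 in UVABs and 0.65 ± 0.11 in STSABs, or 0.48 in UVABs and 0.54 in STSABs without these libraries, and was lower in LPS than in Con with a log2 fold change of -1.17 ± 0.13.

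The proline enzymes Aldh18a1 and Pycr1 were higher than in LPS with log2 fold changes of 0.81 ± 0.09 in UVABs and 0.77 ± 0.09 in STSABs for Aldh18a1, and with log2 fold changes of 0.83 ± 0.17 in UVABs and 0.73 ± 0.17 in STSABs for Pycr1. Pycr1 was low, at 1.26 CPM on average in LPS, and its STSABs libraries overlapped those of LPS. Aldh18a1 averaged 15.2 ± 1.05 CPM in UVABs, 14.9 ± 2.08 in STSABs, 8.68 ± 0.701 in LPS and 73.9 ± 1.03 in Con, a log2 fold change of -3.09 ± 0.09 in LPS against Con. Gpt2, the mitochondrial alanine aminotransferase, was higher than in LPS with log2 fold changes of 0.78 ± 0.12 in UVABs and 0.84 ± 0.12 in STSABs and lower in LPS than in Con with a log2 fold change of -1.41 ± 0.13. Bcat1, the cytosolic branched-chain aminotransferase, was measured below 1 CPM on average in UVABs, STSABs and LPS. Its log2 fold change against LPS was 0.29 ± 0.34 in UVABs, not called, and 0.76 ± 0.32 in STSABs, just past the threshold by edgeR (adjusted p = 0.0463). That call was lost without any of Con library 3, LPS libraries 1, 3, 4 and 5, STSABs libraries 1, 2, 3 and 5 and UVABs library 3 (0.63 to 0.81). Cth, which releases cysteine from cystathionine, was not called against LPS (-0.27 ± 0.18 in UVABs and -0.24 ± 0.18 in STSABs), and was lower in LPS than in Con with a log2 fold change of -0.57 ± 0.18.

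Of the 8 transporters, 5 were higher and 2 lower in each AB group than in LPS, or 62.5% and 25%, where 28.4% to 28.6% of all tested genes were called higher and 28.8% to 29.0% lower. In LPS against Con 6 were lower and 2 higher, or 75% and 25%, beside 43.0% and 40.0% of all tested genes. Slc3a2 encodes the CD98 heavy chain, which carries several light-chain amino acid exchangers to the membrane. It was measured at 369.7, 461, 372, 369 and 372 CPM in UVABs, 377, 455, 367, 373 and 361 in STSABs, 433, 503, 512, 465 and 521 in LPS and 241, 248 and 263 in Con. AB libraries overlapped LPS through library 2 of each AB group, and all Con libraries were lowest. Slc3a2 was lower than in LPS with log2 fold changes of -0.32 ± 0.07 in UVABs and -0.33 ± 0.07 in STSABs (edgeR adjusted p = 0.000573 and 0.00044), and -0.39 in UVABs and -0.40 in STSABs without these libraries. It was higher in LPS than in Con with a log2 fold change of 0.96 ± 0.09, and its deposited values were not whole numbers in 5 libraries.

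Slc7a5, the LAT1 light chain that pairs with CD98, was higher in the AB groups than in LPS, at 54.1 ± 3.57 CPM in UVABs, 55.0 ± 7.53 in STSABs, 47.2 ± 2.07 in LPS and 196 ± 21.1 in Con. Its log2 fold change was 0.20 ± 0.08 in UVABs and 0.22 ± 0.08 in STSABs against LPS, with overlap, and -2.05 ± 0.08 in LPS against Con. Without library 2 of STSABs its change in STSABs was 0.14, no longer called (edgeR adjusted p = 0.0773), and in UVABs the call was lost without any of LPS libraries 2, 4 and 5 and UVABs libraries 1 and 3 (0.17 to 0.20). Slc7a1, a cationic amino acid transporter, was lower than in LPS with log2 fold changes of -0.28 ± 0.08 in UVABs and -0.24 ± 0.08 in STSABs, without overlap, and lower in LPS than in Con with a log2 fold change of -0.20 ± 0.09 (edgeR adjusted p = 0.042). The Slc7a1 call in LPS against Con was lost without any of Con libraries 2 and 3 and LPS libraries 1, 2, 3 and 5 (-0.21 to -0.17), and that in STSABs without STSABs library 1 (-0.20). Its relative Slc7a3 averaged 6.52 ± 0.370 CPM in UVABs, 6.31 ± 0.896 in STSABs, 5.71 ± 0.658 in LPS and 1.25 ± 0.325 in Con. Slc7a3 was higher in LPS than in Con with a log2 fold change of 2.18 ± 0.16 and was not called against LPS in either AB group.

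Slc38a2, Slc1a5, Slc1a4 and Slc6a9 were all lower in LPS than in Con and higher in the AB groups than in LPS. Slc38a2, which takes up small neutral amino acids with sodium, was higher than in LPS with log2 fold changes of 0.37 ± 0.06 in UVABs and 0.37 ± 0.06 in STSABs, without overlap, and had a log2 fold change of -1.23 ± 0.07 in LPS against Con. Slc1a5, a glutamine and neutral amino acid exchanger, averaged 21.5 ± 0.799 CPM in UVABs, 22.4 ± 2.70 in STSABs, 17.9 ± 1.28 in LPS and 92.6 ± 8.37 in Con. Its log2 fold change was 0.27 ± 0.08 in UVABs and 0.33 ± 0.08 in STSABs against LPS and -2.37 ± 0.08 in LPS against Con. The LPS libraries overlapped STSABs but not UVABs for this gene. Slc1a4, an exchanger of alanine, serine and cysteine, was higher than in LPS with log2 fold changes of 0.93 ± 0.30 in UVABs and 0.79 ± 0.30 in STSABs. Its UVABs libraries overlapped those of LPS, and its STSABs libraries did not. The size of the Slc1a4 changes depended on the libraries numbered 2. Without library 2 of UVABs its change in UVABs was 0.50 (edgeR adjusted p = 0.0581). Without library 2 of STSABs its change in STSABs was 0.47 (edgeR adjusted p = 0.148), and it was not called there without any of LPS libraries 1, 2 and 5 (0.71 to 0.78). Without both it was 0.50 in UVABs and 0.47 in STSABs, and called (edgeR adjusted p = 0.000899 and 0.00174). Slc6a9, the glycine transporter GlyT1, was below 1 CPM on average in UVABs, STSABs and LPS, was higher in both AB groups than in LPS with log2 fold changes of 1.12 ± 0.35 in UVABs and 1.20 ± 0.34 in STSABs, and had a log2 fold change of -3.80 ± 0.26 in LPS against Con. Both AB groups overlapped LPS for Slc6a9.

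None of these genes passed the test between the AB preparations. In UVABs against STSABs, edgeR called 0 of the 38 genes higher and 0 lower, and 0 had an unadjusted p below 0.05, where 0% of all tested genes were called in either direction. Over all tested genes, edgeR gave 198 with an unadjusted p below 0.05, DESeq2 151 and limma-voom 191, and all 3 called 0 after adjustment. These fits take no account of a possible pairing of same-numbered AB libraries. With the number as a block and the AB groups alone, edgeR called 0 of 11732 genes, with 457 genes at an unadjusted p below 0.05, among them 1 of the 38, Phgdh, at a log2 fold change of -0.12 (95% interval -0.23 to -0.02). Without the block, the log2 fold changes ran from -0.46, for Bcat1, to 0.14. The 95% interval of the difference lay within 0.25 of 0 on the log2 scale for 16 of the 38 genes, within 0.5 for 32 and within 1 for 37. It was -0.37 to 0.25 for Trib3, -0.47 to 0.51 for Chac1, -0.27 to 0.11 for Asns and -0.55 to 0.56 for Gls2. With the block it lay within 0.25 of 0 for 27 of the 38, within 0.5 for 36 and within 1 for 37, and was -0.23 to 0.12 for Trib3, -0.25 to 0.29 for Chac1, -0.21 to 0.04 for Asns and -0.12 to 0.12 for Gls2. A p that misses the threshold does not show that the preparations act alike.

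Relative to Con, the AB macrophages held a mixture of higher and lower genes. In UVABs 10 of the 38 genes were higher and 24 lower, where 40.2% of all tested genes were called higher and 42.4% lower. In STSABs 10 were higher and 23 lower, where 40.0% and 42.6% of all tested genes were called. Median log2 fold changes of the 38 were -0.60 in UVABs and -0.55 in STSABs. The share of called genes that were higher was 48.7% in UVABs and 48.4% in STSABs over all genes under TMM, 36.7% and 36.5% under upper-quartile scaling, and 22.7% and 22.8% under totals alone. Nupr1, Gls2 and Atf3 were the highest of the 38 relative to Con, at 2.91, 5.21 and 2.83 in UVABs and 2.96, 5.20 and 2.80 in STSABs.

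Aldh18a1, Trib3 and Asns were lower than in Con in both AB groups. Aldh18a1 was lower than in Con with log2 fold changes of -2.28 ± 0.08 in UVABs and -2.31 ± 0.08 in STSABs, Trib3 with log2 fold changes of -1.94 ± 0.15 in UVABs and -1.88 ± 0.15 in STSABs, and Asns with log2 fold changes of -1.47 ± 0.10 in UVABs and -1.39 ± 0.10 in STSABs. Pycr1 and Stc2 were not called against Con in either AB group, nor was Got1, at 0.11 ± 0.14 in UVABs and 0.11 ± 0.14 in STSABs. Chac1 was lower than in Con with log2 fold changes of -0.68 ± 0.24 in UVABs and -0.70 ± 0.24 in STSABs, but without library 3 of Con the changes were -0.42 in UVABs and -0.44 in STSABs and were not called. Mthfd1l was lower than in Con with a log2 fold change of -0.28 ± 0.12 in UVABs. It was not called without library 2 of UVABs (-0.18), library 1 of Con (-0.28) or library 2 of Con (-0.20). Slc3a2 was higher than in Con under TMM with log2 fold changes of 0.63 ± 0.08 in UVABs and 0.63 ± 0.08 in STSABs, and was at -0.07 in both under totals alone. Ddit3 was likewise higher with log2 fold changes of 0.61 ± 0.13 in UVABs and 0.54 ± 0.13 in STSABs under TMM, and stood at -0.09 in UVABs and -0.15 in STSABs under totals alone. Vldlr was higher with log2 fold changes of 0.59 ± 0.20 in UVABs and 0.67 ± 0.20 in STSABs under TMM and at -0.12 in UVABs and -0.03 in STSABs under totals alone.

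Other genes of the same pathways numbered 61 by list and 56 tested. Of the 56, 18 were higher and 22 lower in UVABs than in LPS, or 32.1% and 39.3%, beside 28.6% and 28.8% of all tested genes. In STSABs against LPS 17 were higher and 22 lower, or 30.4% and 39.3%, beside 28.4% and 29.0%. In LPS against Con 15 were higher and 34 lower, or 26.8% and 60.7%, beside 40.0% and 43.0%. Their median log2 fold changes were -0.08 in UVABs against LPS, -0.06 in STSABs against LPS and -0.41 in LPS against Con. Fgf21, Pycr3 and Sds were not analysed here, and Sdsl and Slc43a1 did not pass the filter. The 4 with the lowest adjusted p in STSABs against LPS were Pck2, Sesn2, Slc1a2 and Slc7a11. Pck2, the mitochondrial phosphoenolpyruvate carboxykinase, averaged 17 ± 0.469 CPM in UVABs, 16.6 ± 1.35 in STSABs, 5.84 ± 0.368 in LPS and 48.1 ± 4.88 in Con. It was higher than in LPS with log2 fold changes of 1.54 ± 0.08 in UVABs and 1.5 ± 0.08 in STSABs and lower in LPS than in Con with a log2 fold change of -3.04 ± 0.08. Sesn2, a stress-induced inhibitor of mTORC1, was higher than in LPS with log2 fold changes of 1.47 ± 0.12 in UVABs and 1.5 ± 0.12 in STSABs and lower in LPS than in Con with a log2 fold change of -2.39 ± 0.12.

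The transporters among these 4 ran the other way. Slc7a11, the light chain of the cystine importer that works with CD98, averaged 378 ± 35.9 CPM in UVABs, 371 ± 31.0 in STSABs, 613 ± 25.1 in LPS and 119 ± 12.5 in Con. It was lower than in LPS with log2 fold changes of -0.70 ± 0.07 in UVABs and -0.73 ± 0.07 in STSABs and higher in LPS than in Con with a log2 fold change of 2.37 ± 0.09. Slc1a2, a glutamate transporter, averaged 27.7 ± 3.03 CPM in UVABs, 26.2 ± 2.05 in STSABs, 63.0 ± 11.0 in LPS and 0.121 ± 0.0552 in Con, and was lower than in LPS with log2 fold changes of -1.19 ± 0.10 in UVABs and -1.27 ± 0.10 in STSABs.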

How the data were processed

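Poly(A) RNA of 18 libraries was read as paired ends on an Illumina NovaSeq after a dUTP library preparation, per the labels' protocols. HISAT2 and the build mm39 are named in the submitters' processing notes. The sources used here give no counting tool, strand setting or annotation, so reads of overlapping or antisense genes and near-identical copies cannot be told apart. The authors deposited 1 table of estimated counts per gene symbol, without normalization. In it 6.35% of values, in 2017 genes, were not whole, and all were rounded before testing.

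The filterByExpr filter, applied by group, kept 12465 genes with 99.97% of the counts. One edgeR quasi-likelihood model of the 18 libraries (edgeR 4.0.16, R 4.3.3, TMM) gave log2 fold changes, SEs and 95% intervals, adjusted by Benjamini-Hochberg over the tested genes. In CPM, 3 counts are worth 0.108 to 0.184, a floor that covers counting error only. Levels are not per length and are not compared between genes. DESeq2 1.42.0, limma 3.58.1 with voom, and other scalings, filters and sample sets were alternatives, and the model was tested on simulated data. No pair of replicates agreed within sampling noise by a chi-square of their counts. Deviations of same-numbered UVABs and STSABs libraries correlated at 0.116 to 0.540, all above 0.1, which no other pair of groups met at every number. The value of 0.540 came from the libraries numbered 2, and library 5 of STSABs correlated best with library 4 of UVABs. Con and LPS reached 0.113 at number 3. Pairing of the AB groups by number is therefore possible but not established. Genes and lists were chosen with earlier results of these data known. Values in every library are given for genes with a log2 fold change of at least 1 in an AB comparison and a mean of at least 5 CPM in a group, and for Atf4, Ddit3, Trib3, Asns and Slc3a2.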

Additional observations from a re-analysis of the deposited data

Results flagged for a closer look

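Of 114 tests of a gene in a group of 5 libraries, 17 found a library whose gap to its nearest neighbour was too wide a share of the group's range by Dixon's criterion, where chance alone gives about 1 in 20, or 5.7. Library 2 of STSABs accounted for 7 of them and library 2 of UVABs for 6. In UVABs library 2 the levels were high for Gls2 (41.5 CPM), Glul (88.3 CPM), Got1 (110.2 CPM), Slc1a4 (13.2 CPM) and Slc3a2 (461 CPM), and low for Mthfd1l (14.8 CPM). In STSABs library 2 they were high for Gls2 (40.2 CPM), Glul (92.4 CPM), Got1 (102 CPM), Slc1a4 (10.7 CPM), Slc3a2 (455 CPM), Chac1 (5.96 CPM) and Shmt2 (37.2 CPM). Shmt1 was low in UVABs library 1 (0.849 CPM), Slc7a1 was low in STSABs library 1 (35.9 CPM), and Atf5 (37.7 CPM) and Glul (57.3 CPM) were high in LPS library 5. Without both AB libraries numbered 2, Gls2, Glul, Got1, Slc1a4 and Slc3a2 were still called against LPS in UVABs and in STSABs.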

How the results depend on the processing

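With 1 library left out in turn, the number of the 38 genes called higher was 27 to 28 in UVABs against LPS, 26 to 29 in STSABs against LPS and 7 to 8 in LPS against Con, and the number called lower was 3, 2 to 3 and 26 to 28; 0 were called in UVABs against STSABs in each case. Under DESeq2, limma-voom, other filters and other scalings, fits of the compared groups alone and the replicate block, these counts moved by at most 1.5 times with 1 exception. Under totals alone, 6 genes were higher in STSABs than in Con, in place of 10. The number lower in STSABs against LPS was 2 in place of 3 under totals alone and with replicates 1 to 3 only. Directions turned under scaling only against Con. For LPS against Con, Mthfd2 was -0.10 under upper-quartile scaling, and under totals alone Mthfd2 was -0.56 and Ddit3 -0.70. Under totals alone UVABs against Con gave Ddit3 -0.094, Vldlr -0.12, Got1 -0.59 and Slc3a2 -0.071, and STSABs against Con gave Ddit3 -0.15, Stc2 -0.59, Vldlr -0.027, Got1 -0.59 and Slc3a2 -0.072. These follow from the factor of 1.51 of Con; which scaling is right was not tested.

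Of 4104 single-gene values with 1 library left out, 41 lost their call, 6 gained one and 0 turned. Of 2771 under the other settings, 27 lost it, 19 gained one and 12 turned, as listed. Only between the AB groups did the libraries of every number correlate above 0.1. With numbers as a replicate block, 28 genes were higher and 3 lower in UVABs against LPS, 28 and 3 in STSABs against LPS, 8 and 27 in LPS against Con, and 0 in UVABs against STSABs, where the AB groups fitted alone with the block also gave 0. This last fit was chosen after seeing the data. In STSABs against LPS the block took the call from Bcat1 (0.76, adjusted p = 0.0665, edgeR). Depth limits Bcat1, Slc6a9, Chac1, Gls2 and Cbs, which averaged below 1 CPM in at least 1 group.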

Other observations

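Among the other pathway genes, the components that act on eIF2 differed in direction, and these were chosen after their values were seen. Eif2b3 and Eif2b1, subunits of the exchange factor that reloads eIF2, were lower than in LPS with log2 fold changes of -1.09 ± 0.12 in UVABs and -1.0 ± 0.12 in STSABs for Eif2b3 and with log2 fold changes of -0.73 ± 0.07 in UVABs and -0.63 ± 0.07 in STSABs for Eif2b1. Eif2b2, another subunit, was higher with log2 fold changes of 0.70 ± 0.11 in UVABs and 0.71 ± 0.11 in STSABs, and its change of 0.05 ± 0.13 in LPS against Con was not called. Eif2ak2, which encodes the double-stranded RNA kinase PKR, was higher in LPS than in Con with a log2 fold change of 3.46 ± 0.07 and lower in the AB groups than in LPS with log2 fold changes of -0.28 ± 0.05 in UVABs and -0.28 ± 0.05 in STSABs.

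Values of 5 further genes outside the 39, Ddit4, Adm2, Gdf15, Cebpg and Gldc, are given singly; they were also chosen after their values were seen and stand for no group. Ddit4, an inhibitor of mTORC1, averaged 20.1 ± 13.8 CPM in UVABs, 19.7 ± 12.3 in STSABs, 1.87 ± 0.701 in LPS and 2.39 ± 0.506 in Con, a log2 fold change against LPS of 3.42 ± 0.47 in UVABs and 3.39 ± 0.47 in STSABs. Levels of Ddit4 varied widely among AB libraries, and its change without the libraries numbered 2 was not examined. Adm2, a secreted peptide of the calcitonin family, had log2 fold changes of 2.40 ± 0.40 in UVABs and 3.03 ± 0.36 in STSABs at levels near 1 CPM, and Gdf15, a secreted stress cytokine, had log2 fold changes of 0.94 ± 0.24 in UVABs and 1.09 ± 0.23 in STSABs. Cebpg, a dimer partner of ATF4, was higher than in LPS with log2 fold changes of 0.39 ± 0.05 in UVABs and 0.39 ± 0.05 in STSABs and lower in LPS than in Con with a log2 fold change of -1.10 ± 0.06. Gldc, the glycine cleavage enzyme, was lower than in LPS with log2 fold changes of -1.11 ± 0.26 in UVABs and -1.17 ± 0.26 in STSABs, at 1.06 ± 0.533 CPM in UVABs, 1.02 ± 0.336 in STSABs, 2.29 ± 0.360 in LPS and 0.0723 ± 0.0362 in Con.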
